A study of Mus musculus with 46 samples.

Results

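The comparison described here asks where the response of gene expression to dietary fiber differed between cecum and liver. For each probe, the mean of both fiber diets minus the high fat diet was taken in cecum, and the same difference in liver was subtracted from it. A positive value means that fiber moved the gene further up in cecum than in liver, and a negative value the reverse. The comparison used 35 of the 46 arrays of the series, and 19456 of the 55681 distinct probes, those that the scanner software marked as well above background on all 35 arrays. A further 1126 probes missed this requirement on 1 array and 565 on 2 arrays, and for 13440 none of the 35 arrays met it.

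All mice were male C57BL/6, 12 weeks old at the start and 20 weeks old when killed, after 8 weeks on diet. The HFD group ate a high fat diet with 45% of energy from fat. The HFD + inulin group ate the same diet with inulin, a fermentable fructan, at 10% of weight in place of corn starch and cellulose. In the group labelled HFD + Inulin Propionate and -butyrate, called HFD + inul PB below, that place was taken by inulin to which propionate or butyrate had been attached as esters, at 5% of each. Every group had 6 arrays except cecum HFD + inul PB, which had 5. Mice on a low fat diet (LFD, 10% of energy from fat; 5 cecum and 6 liver arrays) entered only a comparison of the fiber diets with LFD and one of LFD with HFD. No label ties a cecum array to a liver array of the same mouse, so the tissues were compared as unpaired and P values measure the spread between these arrays only.

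Inulin is not digested in the small intestine and is fermented by bacteria of the cecum and colon to short-chain fatty acids, chiefly acetate, propionate and butyrate. Butyrate is used largely as fuel by the epithelium of the large intestine and inhibits histone deacetylases, whereas propionate and acetate pass on with the portal blood to the liver. Inulin esters release their bound acid on fermentation. Cecal wall is thus in direct contact with the fermenting material, and liver receives what is absorbed.

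The tissue labels fitted the mean levels of the defining markers. The mean log2 signal of 10 markers of large intestinal epithelium lay at 14.29 to 14.75 in cecum and 4.1 to 4.9 in liver. Of these, Cdx1, Vil1, Epcam, Krt20, Cdh17, Muc2 and Slc26a3 were not well above background on any liver array, and Cdx2 was on 1. Car1 and Lgr5 were on all 18 liver arrays, and the mean of Lgr5 was 9.14 in liver and 8.8 in cecum. The mean of 10 hepatocyte markers lay between 17.12 and 17.56 in liver and between 6.45 and 9.64 in cecum. No cecum array had Alb well above background, whereas Apoa2, Ttr, Apob and Tat were so on all 17. Each slide held 1 tissue with all diets, and each diet sat at the same positions on every slide, so position and diet cannot be told apart. In the cecum the diets also differed in markers of fat cells. The mean of 10 adipocyte markers ranged from 9.74 to 12.75 with a median of 10.81 on HFD, from 7.31 to 11.83 with a median of 8.91 on HFD + inulin, and from 6.97 to 10.1 with a median of 7.4 on HFD + inul PB. In liver the same mean ranged from 5.98 to 9.35 over the 3 diets. Pancreatic acinar markers were at 9.19 in liver HFD + inulin replicate 6 and at 9.65 in liver HFD + inul PB replicate 4, and near 5 on the other liver arrays. In whole tissue, fewer cells of a type and less RNA per cell cannot be told apart.

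**Figure D1:**
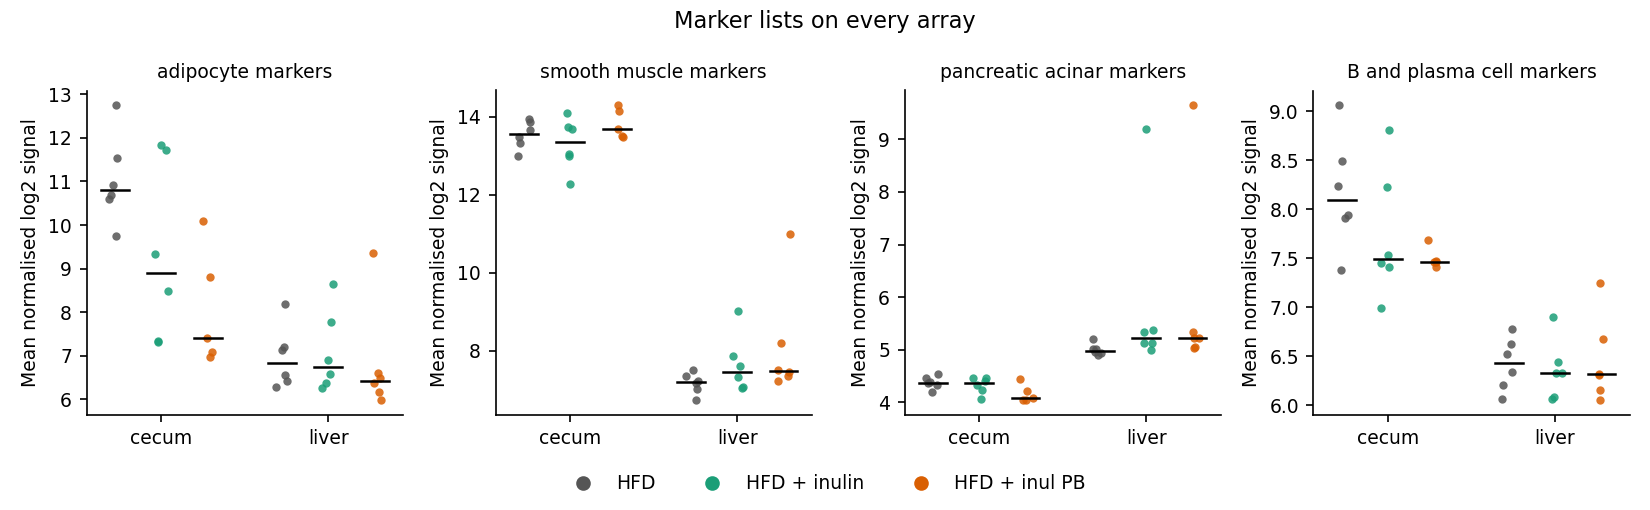
Mean normalised log2 signal of 4 marker lists on every array, by tissue and diet, with a line at the median of each group. Adipocyte markers spread widely in cecum and had their lowest median on HFD + inul PB, and 1 liver array of each fiber diet stood apart for pancreatic acinar markers, at 9.19 and 9.65.

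The response to fiber differed between the tissues for 1598 probes, 8.21% of those tested (limma, adjusted P under 0.05). The cecum response lay above the liver response for 717 of them (3.69% of those tested) and below it for 881 (4.53%). By the criterion of the study, a fold over 1.5 with an unadjusted P under 0.01, 731 probes differed (3.76%), 405 with the cecum response above that of liver and 326 below. Under scaling to the 75th percentile instead, 983 probes passed and 60.2% of them lay above, against 44.9% with the loess used here. The median interaction over all probes was 0.001 on the log2 scale. The count was 1363 without both liver arrays with acinar markers, 2595 with slide as a block within tissue, and 284 with the mean level of the adipocyte markers of each array as a covariate, an alternative chosen after the data were seen.

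Most of the difference came with a response in cecum. Fiber changed 4139 probes in cecum (21.3% of those tested; 1847 higher and 2292 lower) and 0 in liver (0%) after adjustment; in liver 939 probes had an unadjusted limma P under 0.05 and 51 met the criterion of fold and P. Without single arrays the liver count was between 0 and 3, 2 of them without cecum HFD replicate 5 and 3 without liver HFD replicate 6, and it was 49 with loess over all pairs of arrays. Of the 1598 probes of the interaction, 1482 (92.7%) also passed in cecum alone, and the cecum response was the larger of the pair in size for 95.6%, against 73.5% of all probes tested. The median residual SD over probes was 0.212 in cecum and 0.207 in liver, but single genes differed. Group SDs of Tff3 were 0.11 to 0.33 in cecum and 0.45 to 1.48 in liver, those of Rbp4 0.41 to 1.35 and 0.07 to 0.1. The fit gave each probe 1 estimate of the spread for both tissues. P values and counts for one tissue thus also depend on the spread in the other. The interaction contains the cecum response, so the shares of 92.7% and 95.6% describe its make-up and were not tested.

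Over all probes tested, the responses had opposite signs in cecum and liver for 50.2%. Among the 1598 probes the share was 79.9%, which is given as a description only, since the choice of probes by their difference raises it by itself. For 160 of them both responses had an unadjusted P under 0.05, with cecum higher and liver lower for 78 and the reverse for 82. A further 116 probes of the interaction did not pass in cecum alone, and 98 of these had an unadjusted liver P under 0.05. A median size of 0.506 was found for the log2 interaction of the 1598 probes, with 0.28 and 1.12 at the 5th and 95th percentiles.

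**Figure D2:**
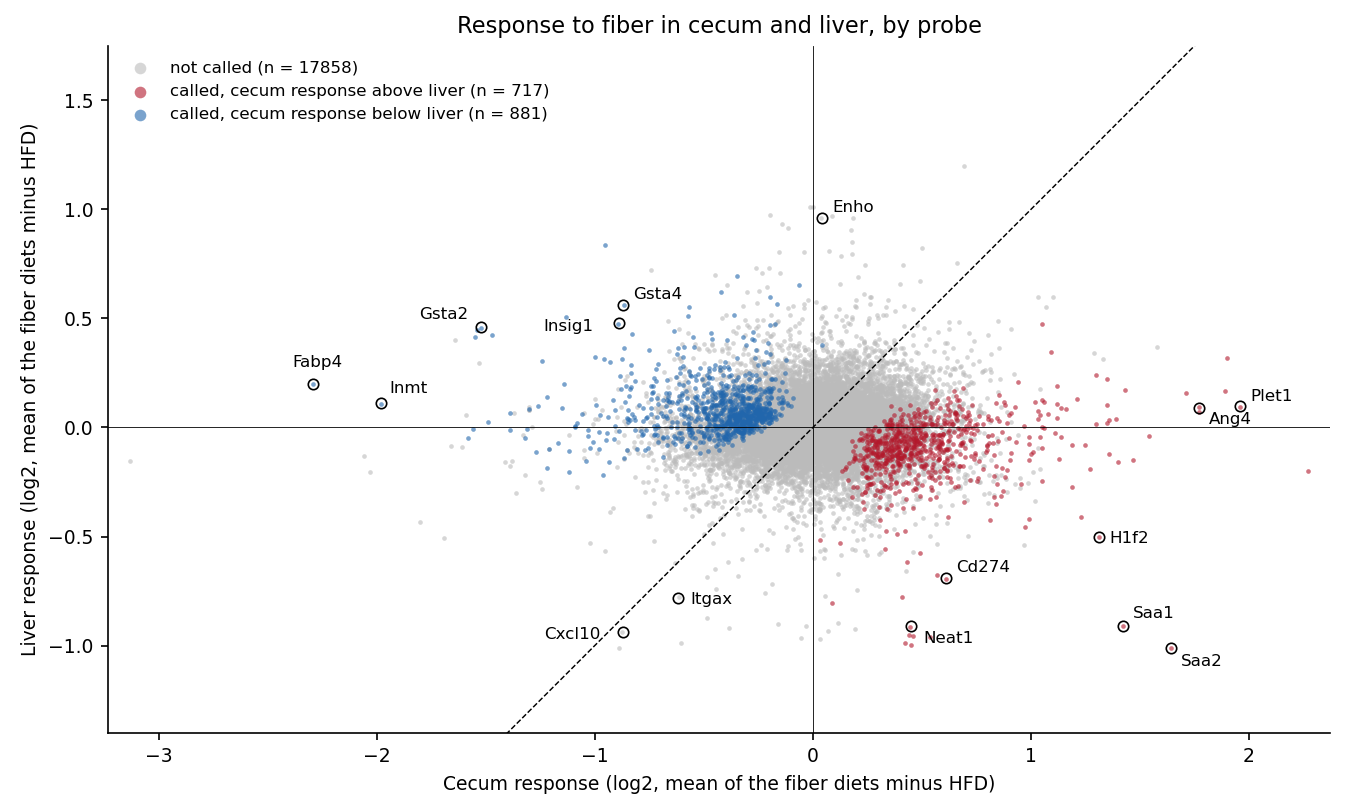
Response to fiber in cecum (x axis) and liver (y axis), each as the mean of both fiber diets minus HFD on the log2 scale, for the 19456 probes tested; the dashed line marks equal responses, and colours mark the 717 and 881 probes whose responses differed. Cecum responses spread more widely than liver responses (SD over probes 0.286 and 0.139), and Saa1 and Saa2 lie far from the dashed line with cecum higher and liver lower.

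The largest positive interactions of named genes belonged to Saa2 and Saa1, which encode serum amyloid A proteins, acute phase apolipoproteins made by liver during inflammation and also by intestinal epithelium in contact with bacteria. Both lie side by side on chromosome 7. The 250 bases before the start of each (RefSeq, GRCm38.p6) are shown because the genes moved together. They were identical at 238 of 251 aligned positions (94.8%). Capitals mark a match to the letters TTNNGCAA, the type bound by C/EBP factors, searched on both strands and found here on the strand opposite to the gene. Such a match occurs in 9.56% of 32851 windows of the same length before the starts of mouse genes. The first sequence is that of Saa1 at chr7:46742981-46743230 on the minus strand, and the second that of Saa2 at chr7:46751583-46751832 on the plus strand, each written 5′ to 3′ towards its gene.
Saa1: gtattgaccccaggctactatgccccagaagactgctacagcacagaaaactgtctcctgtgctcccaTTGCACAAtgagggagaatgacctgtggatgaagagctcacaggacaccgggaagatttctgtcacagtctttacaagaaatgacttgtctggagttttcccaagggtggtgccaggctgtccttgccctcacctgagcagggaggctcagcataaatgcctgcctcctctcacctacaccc
Saa2: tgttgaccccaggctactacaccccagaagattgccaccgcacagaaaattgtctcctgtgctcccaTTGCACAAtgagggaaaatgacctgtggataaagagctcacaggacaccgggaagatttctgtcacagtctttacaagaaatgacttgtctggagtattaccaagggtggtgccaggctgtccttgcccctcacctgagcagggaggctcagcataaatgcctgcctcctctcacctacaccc

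In cecum, the log2 signal of Saa2 on HFD ran from 12.8 to 14.89 with a median of 13.32. On HFD + inulin it ran from 14.48 to 16.31 with a median of 15.22, and on HFD + inul PB the 5 arrays read 14.7, 14.36, 15.43, 14.84 and 15.49. The fiber arrays were higher, with an overlap due to 1 HFD array. In liver the order was turned. The liver HFD arrays ran from 12.98 to 14.9 with a median of 13.62, those of HFD + inulin from 11.87 to 13.99 with a median of 12.46, and those of HFD + inul PB from 12.36 to 13.45 with a median of 12.66, and the groups overlapped. Saa2 thus rose 3.12-fold in cecum (log2 1.64 ± 0.31 SE; adjusted P = 0.00039), and its liver response was -1.01 ± 0.31, a value of 2.02-fold lower on fiber that did not pass adjustment (unadjusted P = 0.0024, adjusted P = 0.523). The responses differed by 2.65 ± 0.44 on the log2 scale, with a 95% confidence interval of 1.76 to 3.54 and an adjusted P of 0.000433.

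Saa1 followed Saa2 closely. Its cecum signal ran from 13.14 to 15.48 on HFD (median 13.85) and from 14.78 to 16.6 on HFD + inulin (median 15.62), and read 15.07, 14.74, 15.79, 15.3 and 15.79 on HFD + inul PB. In liver it ran from 13.05 to 14.66 on HFD (median 13.48), from 12.09 to 13.71 on HFD + inulin (median 12.48) and from 12.44 to 13.3 on HFD + inul PB (median 12.65). Again 1 cecum HFD array reached into the range of the fiber arrays, and the liver groups overlapped. The interaction of Saa1 was 2.33 ± 0.42 (adjusted P = 0.00117), from a rise of 1.42 in cecum and a liver value of -0.91. The transcripts are nearly identical and a probe of one may bind the other, so they are not 2 independent results. The sign held within each of the 3 slides of each tissue: the Saa2 response was 1.21, 1.46 and 2.37 on the cecum slides and -1.11, -1.76 and -0.16 on the liver slides. Only the first slide of each tissue was scanned on the same day, and between these the Saa2 responses differed by 2.32.

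Of the other acute phase genes, Saa1 and Saa2 were the only called members among 9 tested of a list of 26. Lcn2, which encodes an iron-withholding protein of the innate defence, had an interaction of 1.12 (adjusted P = 0.0509), with a cecum response of 0.19 and a liver response of -0.93. Saa3, expressed mainly outside the liver, had 0.46, and C3, the central complement component, had -0.52. The 9 genes had a median interaction of 0.54, against -0.01 over all 10817 genes tested with 1 probe each, of which 8.4% were called.

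**Figure D3:**
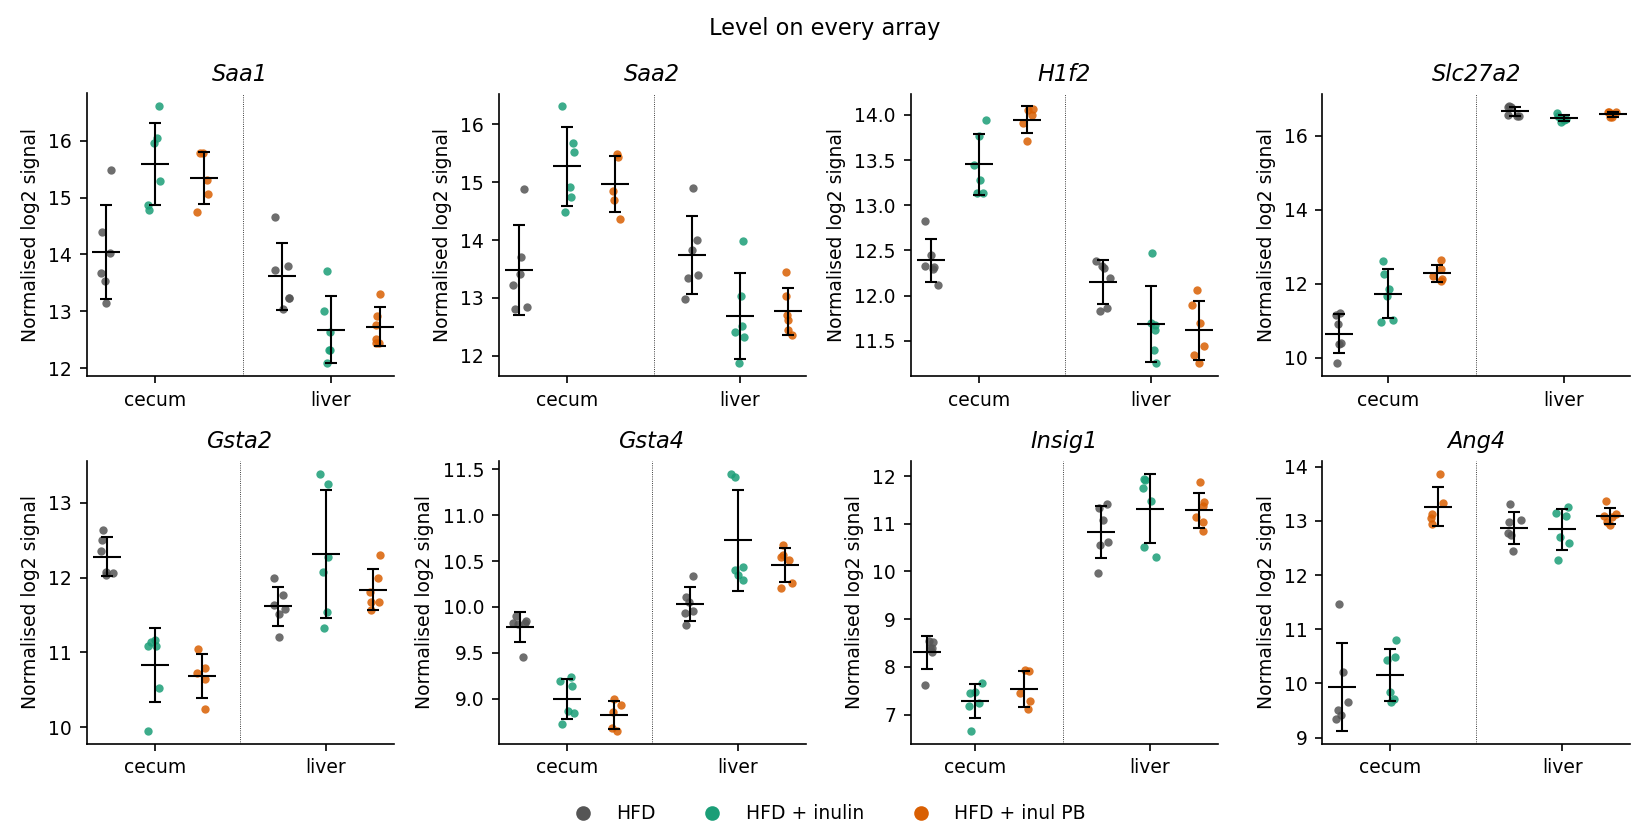
Normalised log2 signal of 8 genes on every array by tissue and diet, with the mean and SD of each group (6 arrays, or 5 for cecum HFD + inul PB). Saa1, Saa2 and H1f2 were higher on fiber in cecum and had lower means on fiber in liver, Gsta2, Gsta4 and Insig1 had the reverse order of means, and the Ang4 signal in cecum was high on HFD + inul PB only among these diets.

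H1f2, on chromosome 13, encodes the linker histone H1.2, which binds the DNA between nucleosomes. Its interaction shared the lowest adjusted P of all probes with those of Camk2n1 and Ces1f. In cecum its signal ran from 12.12 to 12.83 on HFD (median 12.33) and from 13.13 to 13.94 on HFD + inulin (median 13.37), and read 14, 13.91, 13.71, 14.07 and 14.05 on HFD + inul PB. No cecum fiber array overlapped with HFD. In liver it ran from 11.83 to 12.38 on HFD (median 12.26), from 11.25 to 12.47 on HFD + inulin (median 11.65) and from 11.25 to 12.06 on HFD + inul PB (median 11.57), with overlap. H1f2 rose 2.48-fold in cecum (log2 1.31 ± 0.15, adjusted P = 3.67e-07) and had a liver value of -0.5 ± 0.15 (unadjusted P = 0.00175, adjusted P = 0.46). The interaction was 1.81 ± 0.21 (adjusted P = 4.77e-06), and the single slides of cecum gave responses of 0.98, 1.46 and 1.43, those of liver -0.36, -0.72 and -0.43. For Camk2n1, an inhibitor of calcium/calmodulin-dependent kinase II, the interaction was 1.26, and for Ces1f, a carboxylesterase, 0.84 (adjusted P = 4.77e-06 for both).

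Neat1, a long non-coding RNA of nuclear paraspeckles on chromosome 19, differed between the tissues mainly by its liver values. The Neat1 signal in liver ran from 12.94 to 14.14 on HFD (median 13.49), from 11.56 to 13.22 on HFD + inulin (median 12.31) and from 11.44 to 13.63 on HFD + inul PB (median 12.86), and these ranges overlapped. In cecum it ran from 13.68 to 14.58 on HFD and from 13.96 to 15.17 on HFD + inulin, and read 14.02, 14.59, 14.78, 14.79 and 14.97 on HFD + inul PB, again with overlap. The interaction was 1.36 ± 0.36 (adjusted P = 0.0171), with a cecum response of 0.45 (adjusted P = 0.216) and a liver response of -0.91 (adjusted P = 0.386), neither of which passed alone. The second liver slide gave -1.8, and the others -0.44 and -0.5. Between the slides scanned together the difference was 0.86. Another 5 probes listed under the name NEAT1, of the part of the array designed for long non-coding RNAs, gave interactions of 1.39 to 1.49 and were all called, as probes of 1 RNA.

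Cd274 encodes PD-L1, the ligand through which cells restrain T cells, and is induced by interferon. It was the third known gene, after Saa1 and Saa2, that met the criterion of fold and P in both tissues in opposite directions. Its cecum signal ran from 8.3 to 9.61 on HFD and from 9.21 to 10.16 on HFD + inulin, and read 9.45, 10.16, 10.33, 10.08 and 9.96 on HFD + inul PB. In liver it ran from 6.93 to 8.81 on HFD, from 6.33 to 7.18 on HFD + inulin and from 6.41 to 6.95 on HFD + inul PB. The value of 8.81 was that of liver HFD replicate 3, and the next highest HFD array read 7.22. Liver responses were -0.46, -1.24 and -0.38 on the 3 slides. Without that array the interaction was 1.02 and stayed called, and whether liver alone then meets the criterion was not tested. The ranges of HFD and fiber overlapped in both tissues. The cecum response was 0.61 (adjusted P = 0.0424), the liver response -0.69 (adjusted P = 0.553) and the interaction 1.31 ± 0.31 (adjusted P = 0.009).

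Only 3 probes met that criterion in both tissues in the same direction, 2 of them of known genes. Cxcl10, an interferon-induced chemokine that attracts T cells, had responses of -0.87 in cecum and -0.94 in liver, and an interaction of 0.06 with a 95% confidence interval of -0.84 to 0.96. For Itgax, which encodes the CD11c integrin of dendritic cells and some macrophages, the values were -0.62, -0.78 and 0.16 (interval -0.46 to 0.78). Both genes fell in cecum after adjustment (adjusted P = 0.0444 and 0.0398), and neither liver value passed (0.646 and 0.386). The intervals leave room for differences between the tissues in either direction. Their largest liver values came from the second liver slide, at -2.03 for Cxcl10 and -1.59 for Itgax. On that slide liver HFD replicate 3 read 11.3 for Cxcl10, and the next highest HFD array read 10. Without replicate 3 the interaction was -0.23 for Cxcl10 and 0 for Itgax. The mean of cecum and liver response, a measure of what the tissues shared, passed for 1335 probes (6.86%); without single arrays this count was between 993 and 1794, and with loess over all pairs of arrays 3772.

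Antigen presentation genes had positive interactions throughout. These genes make and load the major histocompatibility complex (MHC) molecules: B2m is the light chain of class I, H2-K1 and H2-D1 are heavy chains, Tap1 and Tap2 carry peptides into the endoplasmic reticulum, Psmb8 is a subunit of the immunoproteasome, and Ctss is a protease that prepares class II for loading. Of 17 members tested, 7 were called, all with the cecum response above that of liver, and 0 below; the median interaction was 0.63, and all 17 values were at or above 0. In cecum alone 8 of the 17 rose and 0 fell, whereas of all 10817 genes 1171 rose and 1300 fell there. In the interaction 8.4% of all genes were called, in both directions together. The count was between 5 and 13 without single arrays, with 13 without cecum HFD replicate 5, and it was 7 with the adipocyte marker level as a covariate and 6 without both liver arrays with acinar markers. Under the other settings it ran from 4, without a filter on dim probes, to 10, with slide as a block within tissue.

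The bases before B2m (RefSeq, GRCm38.p6, chr2:122147437-122147686, plus strand) are shown as those of the light chain common to all class I molecules. Capitals mark a match to GAAA, 2 free bases and GAAA, the type of the interferon-stimulated response element, and after it a match, on the other strand, to GGG, 2 free bases and TTTCC, the type bound by NF-kappaB, which do not overlap. Among the 32851 windows 2.98% hold the first and 1.41% the second.
B2m: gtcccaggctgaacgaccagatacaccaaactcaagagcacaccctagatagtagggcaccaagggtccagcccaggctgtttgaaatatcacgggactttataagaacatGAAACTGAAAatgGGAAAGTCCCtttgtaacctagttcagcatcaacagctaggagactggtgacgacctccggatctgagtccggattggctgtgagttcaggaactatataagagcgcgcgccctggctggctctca

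The called members were Tap1 at 0.9 (adjusted P = 0.041), Ctss at 0.79 (0.00444), Psmb8 at 0.72 (0.0379), Tap2 at 0.52 (0.0157), B2m at 0.5 (0.00338), H2-K1 at 0.49 (0.0127) and H2-D1 at 0.47 (0.0203). Tap1 had a cecum response of 0.42 and a liver response of -0.48, whereas for B2m, H2-K1 and H2-D1 the cecum response of 0.36 to 0.41 made up most of the difference. Class II genes had larger values with larger errors: H2-DMb1 had 1.01 ± 0.35 (adjusted P = 0.0643), H2-Aa 0.94 ± 0.41 (0.154) and Cd74, the class II chaperone, 0.8 ± 0.38 (0.186). Over 18 probes of 14 H2 genes, a set drawn up after values were seen, 9 were called, all positive, and the interactions ran from -0.05 to 0.81. Heavy chain transcripts resemble each other and may share signal. Interferon response genes were called for 1 of 22 members, a share of 4.55%, below the 8.4% of all genes. Their median was 0.46 and 21 values were positive, against 5219 positive values among all 10817 genes. The called member was Irf7, the factor that drives type I interferon, at 0.78 (adjusted P = 0.0423), and it rose by 0.72 in cecum. The interferon count was not stable, with 0 to 2 positive calls without single arrays and 0 to 3 under the other settings.

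Further positive interactions belonged to genes that rose in cecum. Those described next had liver responses between -0.46, for Cda, and 0.32, for Mal, and like all probes were not called in liver. Slc27a2, on chromosome 2, encodes a very long-chain fatty acid transporter and acyl-CoA synthetase. Its cecum signal ran from 9.85 to 11.22 on HFD (median 10.65) and from 10.97 to 12.62 on HFD + inulin (median 11.76), and read 12.63, 12.41, 12.07, 12.2 and 12.12 on HFD + inul PB, where no array overlapped with HFD. In liver all 18 arrays lay between 16.37 and 16.79. The interaction was 1.48 ± 0.25 (adjusted P = 0.00066), with a rise of 1.36 in cecum and a liver response of -0.12. Ak4, a mitochondrial adenylate kinase, rose by 1.71 in cecum with no overlap and had an interaction of 1.55 (adjusted P = 0.00273), and Cda, cytidine deaminase, had 1.43 (0.0111). Without overlap in cecum, Mal, a raft protein of apical transport in epithelium, went from 12.77 to 14.81 on HFD to 15.91 to 16.55 on the fiber diets, with an interaction of 1.58 (0.00768). Plet1, an epithelial surface protein, rose by 1.96 in cecum with overlap and had an interaction of 1.86 (0.0226).

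Cyp2d genes, cytochromes P450 that oxidise drugs, lie together on chromosome 15, and several rose in cecum. Cyp2d9 in cecum ran from 6.55 to 9.14 on HFD and from 9.79 to 10.35 on HFD + inulin, and read 9.87, 9.49, 10.02, 9.88 and 10.33 on HFD + inul PB, so that the fiber arrays lay above every HFD array. Its liver signal lay between 15.39 and 15.85 on all 18 arrays. Cyp2d9 had an interaction of 1.58 (adjusted P = 0.00169) and Cyp2d34 one of 1.33 (0.0106). In both genes cecum HFD replicate 5 was far below the other HFD arrays, at 6.55 for Cyp2d9 and 10.95 for Cyp2d34, and both kept their call without it. Of 10 probes of 9 Cyp2d genes, a family chosen after its values were seen, 9 were called, at 0.38 to 1.58; the other, for the pseudogene Cyp2d37-ps, had 0.58 (0.0682), with a cecum response of 0.32 (0.117) that did not pass. Liver responses of the 10 probes lay between -0.27 and 0.04. Probes of this family may detect more than 1 member. Prdx6, a peroxiredoxin that reduces phospholipid peroxides, was likewise chosen after its values were seen, and all 4 of its probes were called, at 0.86 to 1.7.

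Genes of fatty acid oxidation and ketone formation had 3 of 27 members called, all positive. That share of 11.1% was near the 8.4% of all genes. The median of the list was 0.14, and 22 of the 27 values were positive. Of 14 genes that handle short-chain fatty acids 3 were called positive and 1 negative (28.6%). Pcca, a subunit of propionyl-CoA carboxylase, had 0.65 (adjusted P = 0.0116), Hdac1 and Hdac3, class I histone deacetylases, had 0.43 (0.0411) and 0.32 (0.0468), and Acsm3, a medium-chain acyl-CoA synthetase able to activate butyrate, had -0.74 (0.00686). Acsm3 fell by 0.96 in cecum, with a liver response of -0.22. The transporter Slc5a8 and the receptors Ffar2 and Hcar2 did not pass the requirement of a signal well above background on all 35 arrays. Abcc3 and Abcg2, export pumps for conjugates, were called among 11 genes of bile acid and xenobiotic handling, at 0.81 (0.0157) and 0.48 (0.0329), 18.2% of the list. These counts were not stable. Without single arrays, 2 to 5 genes of fatty acid oxidation, 1 to 3 of short-chain fatty acids and 1 to 2 of bile acids were called positive. Under the other settings, these counts were 0 to 5, 0 to 3 and 0 to 2, with 0 in each list when the adipocyte marker level was a covariate.

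Among the negative interactions were those of the alpha class glutathione transferases, with standard errors from 0.14 to 0.54, and Gsta2 and Gsta4 had liver values of the other sign. These enzymes couple glutathione to lipid peroxidation products and drugs. Gsta2, on chromosome 9, had a cecum signal of 12.03 to 12.64 on HFD (median 12.22) and of 9.95 to 11.17 on HFD + inulin (median 11.09), and read 10.72, 10.64, 11.04, 10.79 and 10.24 on HFD + inul PB. No fiber array overlapped with HFD. In liver it ran from 11.21 to 11.99 on HFD (median 11.61), from 11.33 to 13.39 on HFD + inulin (median 12.18) and from 11.57 to 12.31 on HFD + inul PB (median 11.74), with overlap. Gsta2 fell by 1.52 in cecum (2.88-fold lower, adjusted P = 2.34e-05) with a liver response of 0.46 (unadjusted P = 0.0482, adjusted P = 1), and the interaction was -1.98 ± 0.32 (adjusted P = 0.000341).

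Gsta4, which acts on 4-hydroxynonenal, a toxic aldehyde of lipid peroxidation, lies near Gsta2. Its cecum signal ran from 9.45 to 9.9 on HFD (median 9.82) and from 8.72 to 9.24 on HFD + inulin (median 9.01), and read 8.93, 8.65, 9, 8.85 and 8.68 on HFD + inul PB, all below HFD. In liver the Gsta4 signal ran from 9.8 to 10.34 on HFD (median 10.01), from 10.29 to 11.45 on HFD + inulin (median 10.42) and from 10.21 to 10.67 on HFD + inul PB (median 10.52), with an overlap at the edges. It fell by 0.87 in cecum, and its liver response of 0.56 ± 0.14 had an unadjusted P of 0.00028 and an adjusted P of 0.287. The interaction was -1.43 ± 0.2 (adjusted P = 4.21e-05), and every slide had the same sign, with -0.65, -0.93 and -0.97 in cecum and 0.6, 0.44 and 0.64 in liver. All 6 probes of 5 Gsta genes, a family chosen after its values were seen, were called, from -1.98 to -0.86; the 2 probes of Gsta3, on chromosome 1, owed this to cecum, with liver responses of -0.1 and -0.05. Cross-hybridisation within the family is possible.

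Over the list of glutathione and antioxidant genes 4 of 25 were called negative and 1 positive (20% together, against 8.4% of all genes), with a median of -0.11. Beside Gsta2, Gsta4 and Gsta3 the negative call was Gss, glutathione synthetase, at -0.46 (adjusted P = 0.0471), and Gstt1, a theta class transferase, was positive at 0.64 (0.000804). Gstp1 and Gstm3 had liver responses of 0.55 and 0.82 and cecum responses of 0.19 and 0.5, and their interactions of -0.36 and -0.32 were not called.

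Insig1 encodes the endoplasmic reticulum protein that holds back the activation of SREBP factors when sterols are plentiful, and is itself an SREBP target. In cecum its signal ran from 7.63 to 8.55 on HFD (median 8.4) and from 6.66 to 7.67 on HFD + inulin (median 7.36), and read 7.28, 7.46, 7.11, 7.93 and 7.92 on HFD + inul PB. Only HFD replicate 4, at 7.63, lay among the fiber arrays. In liver it ran from 9.97 to 11.41 on HFD (median 10.85), from 10.3 to 11.94 on HFD + inulin (median 11.62) and from 10.85 to 11.88 on HFD + inul PB (median 11.25), and these ranges overlapped. Insig1 fell by 0.89 in cecum (adjusted P = 0.00602) and had a liver response of 0.48 (adjusted P = 1), and the interaction was -1.37 ± 0.32 (adjusted P = 0.00995).

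Cholesterol synthesis genes had negative values in 22 of 24 members tested, with a median of -0.61, but 2 of 24 were called, Insig1 among them. Sqle, squalene epoxidase, had -1.15 ± 0.59 (adjusted P = 0.237). The median response of the list was -0.24 in cecum and 0.3 in liver. The share called, 8.33%, was that of all genes, 8.4%. The count was between 1 and 4 without single arrays, with 4 without liver HFD replicate 2, and 0 with the adipocyte marker level as a covariate, where Insig1 had -0.99 (0.15). Of 15 fatty acid synthesis genes 0 were called and all 15 had negative values, with a median of -0.4; Scd1, stearoyl-CoA desaturase, had -1.83 ± 0.65 (0.0772) and fell by 2.03 in cecum.

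The most negative called interaction, that of Fabp4, was also one of the least certain. Fabp4 encodes the fatty acid binding protein of adipocytes and is among the adipocyte markers. In cecum its signal ran from 12.65 to 16.13 on HFD (median 13.73) and from 10.49 to 14.92 on HFD + inulin (median 12.31), and read 10.45, 10.83, 10.74, 12.64 and 10.88 on HFD + inul PB. In liver it lay between 9.79 and 12.17 on all 18 arrays, with a response of 0.2. The HFD + inul PB arrays lay below the HFD range, and those on HFD + inulin overlapped with it. The interaction was -2.49 ± 0.77 (adjusted P = 0.0405), and the call was lost in 15 of 35 fits without 1 array. Most adipocyte markers that did not pass the requirement on background moved with Fabp4 in cecum, given as values with no test. Their responses were -4.99 for Adipoq, -4.63 for Cfd, -3.82 for Plin1, -3.62 for Retn and -2.17 for Lep, but 0.08 for Lipe. Among the other tested adipocyte markers the cecum response was -1.3 for Lpl, -0.91 for Cidec and 0.25 for Pparg. With the adipocyte marker level of each array as a covariate, Fabp4 had -0.39 (adjusted P = 0.599). That level includes the Fabp4 probe itself, so a smaller value was built into the fit and is no test of Fabp4. Of the 26 called genes named here, 14 lost their call with it, namely Fabp4, Inmt, Pfkfb3, Cd1d1, Rbp4, Cyp2c67, Cyp2c68, Insig1, Cldn5, Plet1, Ak4, Cda, Neat1 and Cyp2d34, and the other 12, Saa1, Saa2, H1f2, Gsta2 and Gsta4 among them, kept it. The lost calls were of different kinds. Rbp4 had -0.23 with the covariate, Pfkfb3 and Cd1d1 -0.53 each, Cldn5 -0.62, Inmt -0.82 and Insig1 -0.99, all smaller in size than without it, and Plet1 and Ak4 had 1.44 and 1.21. Cda, at 1.43 (adjusted P = 0.0633), Neat1, at 1.5 (0.0538), Cyp2d34, at 1.3 (0.0711), Cyp2c67, at -1.42 (0.102), and Cyp2c68, at -1.23 (0.0607), stayed close to the values they had without the covariate. The covariate differs between the diets in cecum, so it also takes away response to diet that goes with it.

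Several other genes with negative interactions fell in cecum and hardly moved in liver, where they are abundant. Rbp4, the carrier of retinol in blood and also a product of fat cells, had -1.53 (adjusted P = 0.0419), Inmt, indolethylamine N-methyltransferase, -2.09 (0.0157), Ambp, the precursor of alpha-1-microglobulin, -1.38 (0.0135), and Cyp2c67 and Cyp2c68, neighbouring cytochromes P450 on chromosome 19, -1.46 (0.0164) and -1.38 (0.00481). For these 5 genes the liver response lay between -0.05 and 0.11. Cyp2c67 in cecum HFD replicate 5 read 11.06, with the other HFD arrays near the group median of 8.36, and Cyp2c68 read 9.33 there. The mean of the hepatocyte markers was also highest on that array, at 9.64, against 7.21 to 8.03 on the other cecum HFD arrays, and its median in cecum was 7.43 for HFD, 7.36 for plain inulin and 6.8 for the esters. Without that array both genes stayed called, at -0.99 (adjusted P = 0.00493) for Cyp2c67 and -1.05 (0.00223) for Cyp2c68, and Ambp had -1.69 (0.00067). Pfkfb3, a regulator of glycolysis, had -1.63 (0.0484) and lost the call in 21 of 35 fits without 1 array, as did Rbp4 in 16.

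Cd79b, a chain of the B cell receptor complex, had a cecum signal of 8.31 to 9.83 on HFD and of 7.29 to 9.55 on HFD + inulin, and read 7.92, 7.68, 8.02, 7.81 and 7.93 on HFD + inul PB. It fell by 1.24 in cecum, had a liver response of 0.31 and an interaction of -1.55 ± 0.32 (adjusted P = 0.00379). Cd1d1, which presents lipids to NKT cells, had -1.55 (0.0108), and Cldn5, the claudin of endothelial tight junctions, -1.34 (0.0108). The mean of 10 B and plasma cell markers had medians of 8.09, 7.49 and 7.46 on HFD, HFD + inulin and HFD + inul PB in cecum, with overlapping ranges, and 1 of 5 tested markers was called. Of 8 endothelial markers tested, 0 were called, with a median interaction of -0.4. Of 4 adipocyte markers tested, 1 was called, Fabp4. Of 2 tested markers of large intestinal epithelium 1 was called, Lgr5 at -0.63, a call lost in 26 of 35 fits without 1 array. Of 9 macrophage, 6 T cell, 5 smooth muscle and 4 hepatocyte markers tested, 0 were called. Over all genes 8.4% were called, so counts of 0 or 1 do not set marker lists this short apart. The other 6 of the 10 hepatocyte markers did not pass the requirement on background, and their cecum responses, given with no test, ran from -3.58 for Cyp2e1, a cytochrome P450 of the liver, to -0.22 for Alb and Ahsg.

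**Figure D4:**
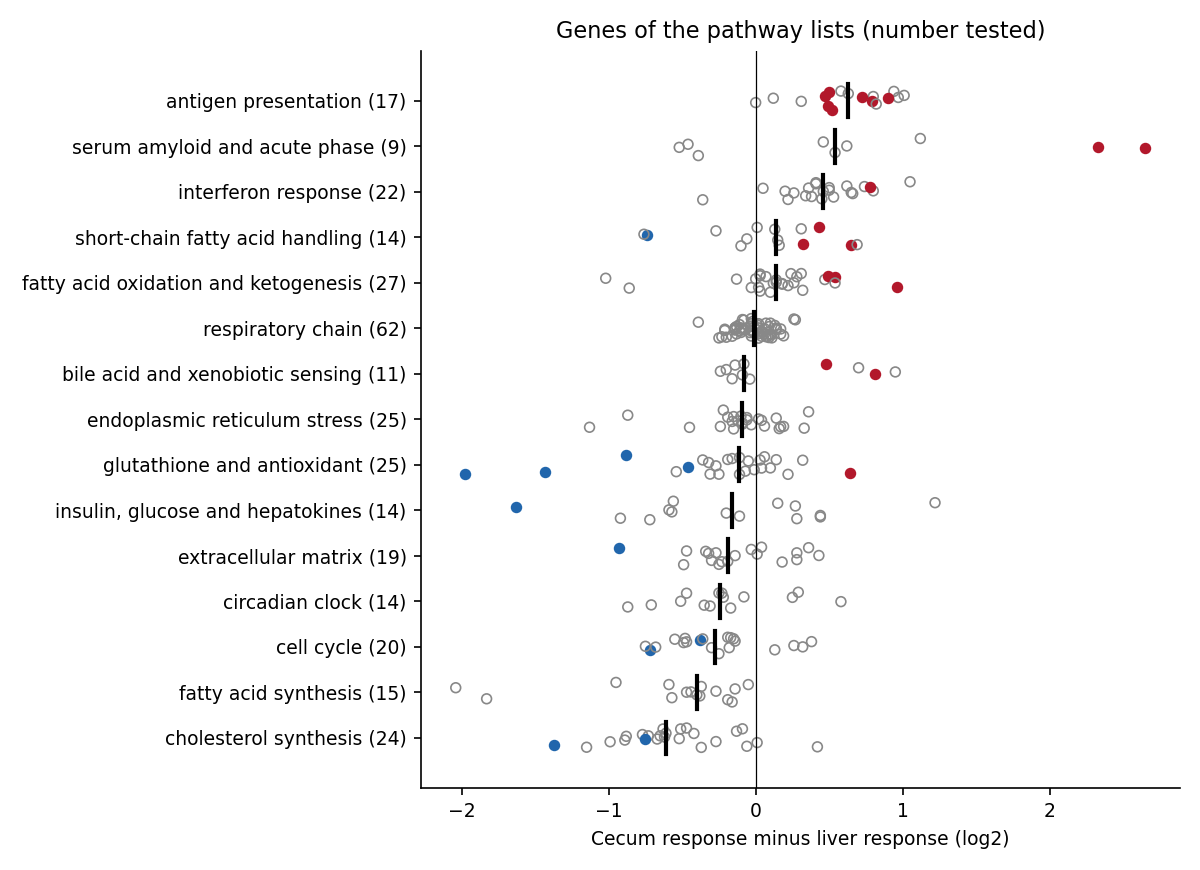
Cecum response minus liver response on the log2 scale for each tested gene of 15 pathway lists, with 1 probe per gene and the number tested in brackets; filled points were called (adjusted P under 0.05) and bars mark the median of each list. Medians run from -0.61 for cholesterol synthesis to 0.63 for antigen presentation, and the 62 respiratory chain genes lie close to 0.

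Several groups had no called member. Of 62 respiratory chain genes 0 were called; their interactions ran from -0.39 to 0.27 with a median of -0.01. Clock genes (14 tested) and genes of endoplasmic reticulum stress (25 tested) also had 0 calls, with medians of -0.24 and -0.09. Of 20 cell cycle genes 2 were called, Pcna, the sliding clamp of DNA replication, at -0.38 (adjusted P = 0.0343) and Ccnd1, cyclin D1, at -0.72 (0.0367), a share of 10% against 8.4% of all genes. That count was between 0 and 4 without single arrays, and between 0 and 5 under the other settings. It was 0 without cecum HFD replicate 5 or liver HFD replicate 1 or 5, 1 without cecum HFD replicate 4 or 6, cecum HFD + inulin replicate 4 or liver HFD replicate 2 or 4, and 4 without cecum HFD + inulin replicate 1, liver HFD + inulin replicate 3 or liver HFD + inul PB replicate 3. Ccnd1 owed this to liver, where its response was 0.65, against -0.06 in cecum. Of 19 extracellular matrix genes only Timp3, an inhibitor of matrix proteases, was called, at -0.93 (0.0353), and of 14 genes of insulin, glucose and hepatokines only Pfkfb3.

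Enho, which encodes the secreted peptide adropin, stood out in liver but not in the interaction. In liver its signal ran from 11.62 to 13.51 on HFD (median 13.27), from 12.86 to 14.27 on HFD + inulin (median 13.92) and from 13.55 to 14.44 on HFD + inul PB (median 13.99). All liver HFD + inul PB arrays lay above the HFD range, and those on HFD + inulin overlapped with it. The liver response was 0.96 ± 0.26 (unadjusted P = 0.000851, adjusted P = 0.386), the cecum response 0.04, and the interaction -0.92 ± 0.37 (adjusted P = 0.119). Tff3, the trefoil peptide of goblet cells, had an interaction of 0.3 with a 95% confidence interval of -0.81 to 1.4. Ube2d2a, a ubiquitin-conjugating enzyme used as a reference gene in the study, had 0.07 ± 0.07, with an interval of -0.07 to 0.22.

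Taken one diet at a time, HFD + inulin gave 166 probes with a difference between the tissues (0.853% of those tested) and HFD + inul PB 1531 (7.87%). Both comparisons use the same HFD arrays. Without single arrays the first count was between 81, without cecum HFD + inulin replicate 4, and 355, without cecum HFD + inulin replicate 5, with 302 without cecum HFD + inulin replicate 2, 270 without cecum HFD replicate 5, 98 without liver HFD replicate 3 and 95 without liver HFD + inulin replicate 2. The second was between 946, without cecum HFD + inul PB replicate 5, and 1833. All 1598 probes called on the mean of the diets had the same sign on each diet, a property that their choice by the mean favours. Their interactions, turned to the sign of the mean, had a median of 0.426 for HFD + inulin, against 0.575 for HFD + inul PB. The difference between the diets passed for 4 probes (0.0206%), so the unequal counts do not show for other probes that the diets differed. The count of 4 became 13 without liver HFD + inul PB replicate 3 and 7 without liver HFD + inulin replicate 3.

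Ang4 and Ang2 accounted for 2 of those 4 probes. Ang4, on chromosome 14, encodes a ribonuclease of the angiogenin family that Paneth and goblet cells secrete against bacteria. Its cecum signal ran from 9.35 to 11.46 on HFD (median 9.58) and from 9.66 to 10.8 on HFD + inulin (median 10.14), which overlapped. On HFD + inul PB it read 13.05, 13.87, 12.94, 13.13 and 13.34, above every other cecum array used. In liver all 18 arrays lay between 12.27 and 13.37. With HFD + inulin the interaction of Ang4 was 0.25 (adjusted P = 0.795), against 3.11 with HFD + inul PB (5.69e-06). The diets differed by 2.86, with a 95% confidence interval of 2.1 to 3.62 and an adjusted P of 6.55e-05. Ang2, a further member of that family, had 0.23 and 1.93, with a difference of 1.7 (0.000347). The remaining 2 probes, of 1 transcript with no gene name, had 0.2 and 2.3, and 0.3 and 3.14. These 4 were named after their values were seen except Ang4. Ang4 and Ang2 resemble each other in sequence, so a probe of one may bind the other. Whether the liver signal of the Ang4 probe came from Ang4 was not tested.

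For other genes the esters and plain inulin could not be told apart with this number of arrays. The difference between the diets, HFD + inul PB minus HFD + inulin, was -0.39 for Saa2, with an interval of -1.43 to 0.66, and 0.09 for Gsta4, with an interval of -0.38 to 0.55. It was 0.57 for H1f2 (interval 0.06 to 1.07) and 1.13 for Cda (interval 0.3 to 1.95), with adjusted P values of 1 and 0.998. The interaction on plain inulin and on the esters, in this order, was 2.85 and 2.46 for Saa2, 1.53 and 2.09 for H1f2, -2.15 and -1.81 for Gsta2, and -1.47 and -1.38 for Gsta4. These genes were called on each diet.

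**Figure D5:**
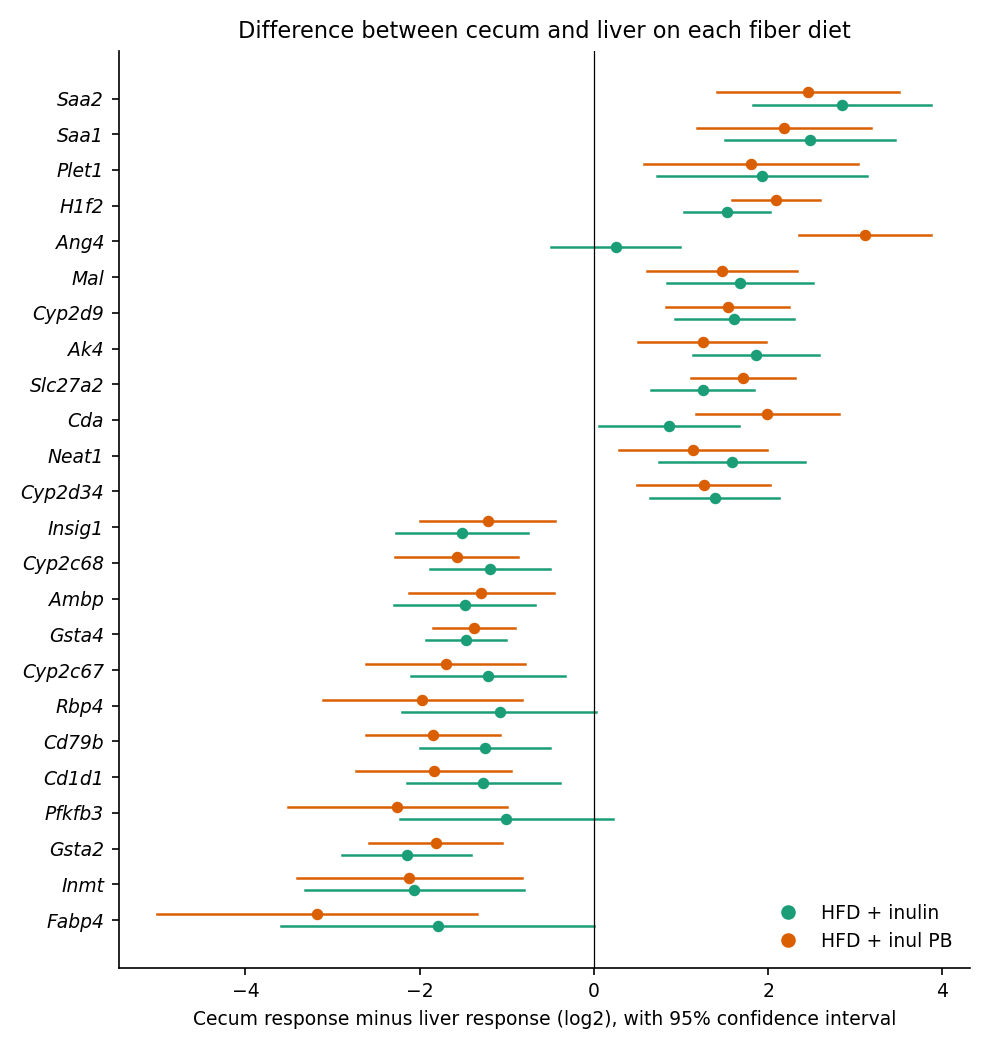
Cecum response minus liver response on the log2 scale on each fiber diet, with 95% confidence intervals, for the 12 genes with the largest positive and the 12 with the largest negative interaction. Both diets gave values of the same sign for all 24 genes, which were chosen by the mean of the diets, and the intervals of Ang4 do not overlap.

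Set against LFD instead of HFD, with all 46 arrays normalised together, the fiber response differed between the tissues for 320 probes (1.64%). Without single arrays this count was between 170, without cecum LFD replicate 1, and 524, without liver HFD + inul PB replicate 3; it was 204 without cecum LFD replicate 2 and 178 without cecum LFD replicate 5. Gsta2 had -1.95 (adjusted P = 0.00152) and Gsta4 -1.31 (0.000303) against LFD, close to their values against HFD. H1f2 had 1.15 (0.00792) and Ang4 1.55 (0.00532). For Saa2 the value was 1.05 (0.234) and for Saa1 0.96 (0.276), and for Insig1 -1.03 (0.17). The response to the low fat diet itself, LFD minus HFD, differed between the tissues for 38 probes (0.195%). Saa2 had 1.6 in it (adjusted P = 0.185), Gsta2 -0.03 (0.991) and Gsta4 -0.11 (0.931). Cd79b was called there, at -1.93 (0.0137), and had 0.38 (0.676) when fiber was set against LFD. These comparisons share their HFD or fiber arrays with those above.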

How the data were processed

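Cecum and liver RNA was hybridised to 1-colour Agilent arrays with 55681 distinct probes. Samples were grouped by tissue and diet from their labels. The authors deposited for each array the Feature Extraction output, in which the processed signal is an intensity on a linear scale with local background subtracted and no normalisation between arrays. They also deposited a table of log2 values, which their methods describe as normalised by cyclic loess and which served only as an alternative. No sample columns were left unused.

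Control and outlier-marked spots were left out. Cyclic loess (span 0.7) of the log2 processed signals ran over the 35 arrays of both tissues together (46 with LFD), and spots of a probe were averaged. In R 4.3.3, limma 3.58.1 fitted 1 mean per tissue and diet, with Benjamini-Hochberg adjustment over 19456 probes; adjusted P under 0.05 was called. Of genes with several probes, the brightest stands for the gene. Signals of different probes are not comparable in level, and the number of arrays limits the precision. Named genes were the 12 with the largest called interaction in each direction, those past fold 1.5 and P 0.01 in both tissues, and those the study named. Some members of the lists are counted but not reported here by name. The members and lists were chosen with earlier results of these data known. Names came from RefSeq (GRCm38.p6), matched for 27509 probes. On simulated data 171 of 200 probes shifted by log2 1 (85.5%) were recovered, with 14 others called. The simulated noise was independent between probes, with 1 SD per probe for both tissues, no outlying arrays and no normalisation. The shift also exceeded the median size of 0.506 among called probes, so these rates need not hold for the real arrays.

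No 2 of the 595 pairs of arrays held identical values. Equal replicate numbers were taken as names only, because no label ties them to a mouse. The deviations of cecum and liver arrays of the same diet and number correlated at 0.02 to 0.31 (median 0.14), over 0.1 in 10 of 17 pairs. Values for unequal numbers across the tissues are not given here, so these correlations cannot settle whether equal numbers mark the same mouse. Alternatives were other normalisations, backgrounds and filters, the authors' values, replicate or slide as a block, weights by tissue and leaving out each array. The normexp alternative (offset 50) used median spot signals; mean spot signals were not used here.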

Additional observations from a re-analysis of the deposited data

Results flagged for a closer look

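For 26 named genes the response to fiber differed between cecum and liver by limma's test of the difference itself, and they are listed for that reason. On the log2 scale the difference was 2.65 for Saa2, 2.33 for Saa1, 1.86 for Plet1, 1.81 for H1f2, 1.68 for Ang4, 1.58 for Cyp2d9 and for Mal, 1.55 for Ak4, 1.48 for Slc27a2, 1.43 for Cda, 1.36 for Neat1, 1.33 for Cyp2d34 and 1.31 for Cd274. It was -2.49 for Fabp4, -2.09 for Inmt, -1.98 for Gsta2, -1.63 for Pfkfb3, -1.55 for Cd1d1 and for Cd79b, -1.53 for Rbp4, -1.46 for Cyp2c67, -1.43 for Gsta4, -1.38 for Ambp and for Cyp2c68, -1.37 for Insig1 and -1.34 for Cldn5. For Ang4 the interaction also differed between HFD + inul PB and HFD + inulin, by 2.86.

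In 37 groups 1 array lay far from the others of its group. Of these, 25 were found among 186 groups of the named genes, where chance gives 9.3 (about 1 group in 20), and 12 among 54 groups of the 9 marker lists, where chance gives 2.7. Genes share arrays, so these are not independent. Cecum HFD replicate 5 stood apart most often, for 7 values. It was low for Cyp2d9 (6.55), Mal (12.77) and Cyp2d34 (10.95) and high for Cyp2c67 (11.06), Cyp2c68 (9.33), Tff3 (17.51) and the hepatocyte markers (9.64). Cecum HFD replicate 2 was low for Plet1 (6.43) and Gsta4 (9.45) and high for Rbp4 (12.86). Cecum HFD replicate 4 was low for Insig1 (7.63), Cd274 (8.3) and Cxcl10 (8.41). On the fiber diets in cecum, HFD + inulin replicate 2 was low for Plet1 (6.85), and HFD + inul PB replicate 4 was high for Fabp4 (12.64) and replicate 3 for the B and plasma cell markers (7.68) and the T cell markers (9.05). HFD + inulin replicate 5 was high for the macrophage markers (8.9) and low for the markers of large intestinal epithelium (14.29).

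In liver, HFD replicate 3 was high for Cd274 (8.81), Cxcl10 (11.3) and the T cell markers (8.05), HFD replicate 2 was high for Pfkfb3 (10.91) and low for Cd1d1 (14.24), and HFD replicate 4 was low for Cyp2c67 (15.19) and Cyp2c68 (14.31). On HFD + inulin, replicate 6 was high for H1f2 (12.47) and the pancreatic acinar markers (9.19), replicate 4 was high for Fabp4 (12.16), replicate 5 for the T cell markers (7.97), and replicate 3 was low for Ube2d2a (12.1). Of the HFD + inul PB arrays, replicate 4 was high for Fabp4 (12.17), the smooth muscle markers (11), the adipocyte markers (9.35) and the pancreatic acinar markers (9.65), and replicate 5 was low for Rbp4 (17.97) and the hepatocyte markers (17.12).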

How the results depend on the processing

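None of the 26 called named genes changed the direction of its interaction under any alternative. Of the genes not called, Cxcl10 (0.06) ranged from -0.23, without liver HFD replicate 3, to 0.27, and Itgax (0.16) from -0.09, with normexp, to 0.28. Without single arrays, 858 of 910 values for the 26 called genes kept their call and 52 lost it, all of these for Fabp4, Rbp4 or Pfkfb3; Enho was called once, without cecum HFD + inulin replicate 5 (-1.05, adjusted P = 0.0439). Under the other settings 435 of 468 values kept their call. The interaction count of 1598 was 983 with 75th percentile scaling, 980 without a filter on dim probes, 2595 with slide as a block within tissue and 284 with the adipocyte covariate, where 70.8% of calls were positive. In the same order the count for HFD + inul PB, 1531, was 985, 910, 2572 and 245. The count for HFD + inulin, 166, was 83 with 75th percentile scaling, 516 with the slide block, 50 with the covariate and 292 with all 46 arrays. By fold and P, 731 became 1686 without the filter, 1373 with probes well above background in at least 1 group and 470 with the covariate. The cecum count of 4139 was 1044 with the covariate. The liver count of 0 was 49 with loess over all pairs, 3 with all 46 arrays and 1 with normexp, without background correction and with the authors' values. Calls on the difference of the diets, 4, were 7 without the filter and with the slide block. The shared count of 1335 was 3772 with loess over all pairs, 856 without the filter, 2260 with the slide block and 299 with the covariate. Against LFD, 320 became 497 with the slide block and 197 with the covariate. Leaving out both liver arrays with acinar markers gave 1363 for the interaction, and moved no other count by over 1.5 times. With the replicate block within tissue the interaction count was 1865, the HFD + inulin count 281 and the LFD count 498; with a random replicate block shared by equal numbers of both tissues (consensus correlation 0.12) these were 2214, 421 and 507, and the shared count 881. Replicate numbers are not known to pair arrays. Leaving out single arrays gave 1202 to 2085 for the interaction, 659 to 867 by fold and P, 3330 to 4646 in cecum, 0 to 3 in liver, 81 to 355 on HFD + inulin, 946 to 1833 on HFD + inul PB, 4 to 13 for their difference, 993 to 1794 shared and 170 to 524 against LFD. The cause of these shifts was not tested. Genes that are dim in 1 tissue were not tested, so a gene used by cecum or liver alone is outside these counts, and slides hold 1 tissue each, so that responses were set side by side across slides.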
